A study of Mus musculus with 2 samples.

Results

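The cells described here are immature neutrophils of the mouse spleen that carry the RNA of secondary granule proteins. They were chosen by RNA alone, as cells in which S100a8 and S100a9, which encode the calprotectin subunits, made up at least 2% of the UMIs (unique molecular identifiers, 1 per captured RNA molecule), in which Camp, Ngp and Ltf made up at least 1%, and in which Elane, Mpo and Prtn3 together had under 10 UMIs. Barcodes counted as cells from 500 UMIs and 200 genes upwards, unless over 10% of their UMIs were mitochondrial. Of 13258 such cells, 989 were members, 254 of 6510 in the library labelled Low B12 and 735 of 6748 in the library labelled High B12. Spleen cells had been viably frozen, sorted as CD45.2+CD11b+ with DAPI and put through a droplet 3′ RNA protocol, 1 library for each B12 treatment. CD45.2 is a strain-specific form of a pan-leukocyte antigen, and CD11b is the integrin subunit encoded by Itgam. The title of the series places the work in Tet2-deficient blood formation, while the labels name no genotype, strain, dose, route, time or age and no number of mice for either library. With 1 library for each treatment no test between treatments was possible, the treatment cannot be told apart from the library, and all intervals are 95% intervals that cover counting error only. Values are given for the Low B12 library first.

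Neutrophils are made from granulocyte progenitors in a fixed order of granule proteins. Promyelocytes make the primary (azurophil) granule proteins such as myeloperoxidase and neutrophil elastase, myelocytes and metamyelocytes make the secondary (specific) granule proteins such as lactoferrin and the cathelicidin, and band and segmented cells make gelatinase and the receptors of the mature cell. Division ends as secondary granules fill, and most of this takes place in the bone marrow, while the mouse spleen keeps some granulocyte formation and expands it under stress.

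The 3 granule genes of the rule are neighbours in the genome. On mouse chromosome 9 in GRCm38, with gene positions from GENCODE M21, Camp, which encodes the cathelicidin antimicrobial peptide, lies at chr9:109847379-109849617, Ngp, which encodes neutrophilic granule protein, at chr9:110419747-110423012, and Ltf, which encodes lactoferrin, at chr9:111019271-111042767, a span of 1.195 Mb. Of the other markers of these cells, Mmp8 (neutrophil collagenase) lies at chr9:7558456-7568485, Lcn2 (lipocalin 2, which binds siderophores) at chr2:32384633-32388252 and Cd177 (a surface glycoprotein of neutrophils) at chr7:24743983-24760311. Sequence upstream of the RefSeq start sites of Camp, Ngp, Ltf and Mmp8 is shown because these genes carry most of the description that follows. Capitals mark the letters TTGCNNAA, on either strand, the core recognised by C/EBP family factors, of which C/EBP epsilon is known for its part in secondary granule formation. The sequences are from RefSeq (GRCm38.p6), 5′ to 3′ on the gene's strand, within the 250 bases before the start and stopped where an exon annotated in GENCODE begins.
Camp (chr9:109849618-109849706, minus strand): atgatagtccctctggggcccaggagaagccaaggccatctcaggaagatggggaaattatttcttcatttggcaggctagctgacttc
Ngp (chr9:110419558-110419746, plus strand): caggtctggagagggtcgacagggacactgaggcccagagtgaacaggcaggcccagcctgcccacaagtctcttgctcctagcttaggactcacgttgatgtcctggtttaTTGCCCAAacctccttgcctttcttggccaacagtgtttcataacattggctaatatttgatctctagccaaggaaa
Ltf (chr9:111019042-111019270, plus strand): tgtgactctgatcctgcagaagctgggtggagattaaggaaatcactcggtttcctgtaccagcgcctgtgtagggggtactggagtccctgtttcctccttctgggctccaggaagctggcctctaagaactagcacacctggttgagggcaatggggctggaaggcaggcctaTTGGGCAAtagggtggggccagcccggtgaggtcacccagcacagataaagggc
Mmp8 (chr9:7558179-7558428, plus strand): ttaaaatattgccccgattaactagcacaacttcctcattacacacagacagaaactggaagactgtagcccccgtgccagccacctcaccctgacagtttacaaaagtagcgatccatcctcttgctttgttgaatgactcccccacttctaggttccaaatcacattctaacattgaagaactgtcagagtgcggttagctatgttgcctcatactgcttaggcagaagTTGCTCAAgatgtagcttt
In the full 250 bases the letters occurred in 4 of the 6 markers, at 2 places in Ngp and once each in Ltf, Lcn2 and Mmp8, and not in Camp or Cd177. The second match of Ngp, 11 bases before its RefSeq start, and that of Lcn2 lie outside the stretches printed here. The letters occurred in 9.56% of all 32851 RefSeq promoters of the same length, and in at least 1 promoter of 10.8% of all 27025 genes. Counted by gene in that way, they occurred in 6 of the 13 secondary granule genes with an entry and in 1 of the 10 primary granule genes. They also occurred in 3 of the 11 immature neutrophil genes and in 5 of the 20 mature neutrophil genes, so they were not particular to secondary granule genes. The secondary granule list holds all 6 markers, so 4 of its 6 genes with a match are the markers just counted. A match is a description of letters and not of binding.

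The label was checked against its markers. All 6 markers were found in both libraries, and the summed level of the 6 was 96000.3 and 100934 CPM (UMIs of the gene per 1000000 UMIs of all members of the library), against 1220 and 1961 CPM in the other calprotectin-high cells, those under the 1% granule limit and under 10 progenitor UMIs. Camp, Ngp and Ltf, which the rule selected on, make up most of this sum, so its contrast was fixed by the choice of cells. Of the 3 markers that the rule did not use, Lcn2 had at least 1 UMI in 100% and 99.6% of members and Cd177 in 98.4% and 97.1%, but Mmp8 in 55.5% and 59.3%. The first 2 were thus present in nearly every member, and Mmp8 was not. Of the progenitor genes, Elane (4.52 and 3.18 CPM) and Mpo (0.565 and 0.212 CPM) were close to absent, as the rule requires. Prtn3, also limited by the rule, had a UMI in 10.6% and 8.71% of members. Ctsg, a primary granule protease that the rule did not use, was at 1.41 and 0.743 CPM. Cd34, a stem and progenitor surface marker, had no UMI in either library. Other progenitor markers were not absent, with a UMI of Ms4a3 in 25.6% and 24.9% of members and of Calr in 47.6% and 41.4%. The 9 progenitor markers summed to 172 and 153 CPM in members, against 116 and 94.4 CPM in the other calprotectin-high cells. Lcn2 and Cd177 thus went with the label, and Mmp8 did so in part of the members only.

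**Figure D1:**
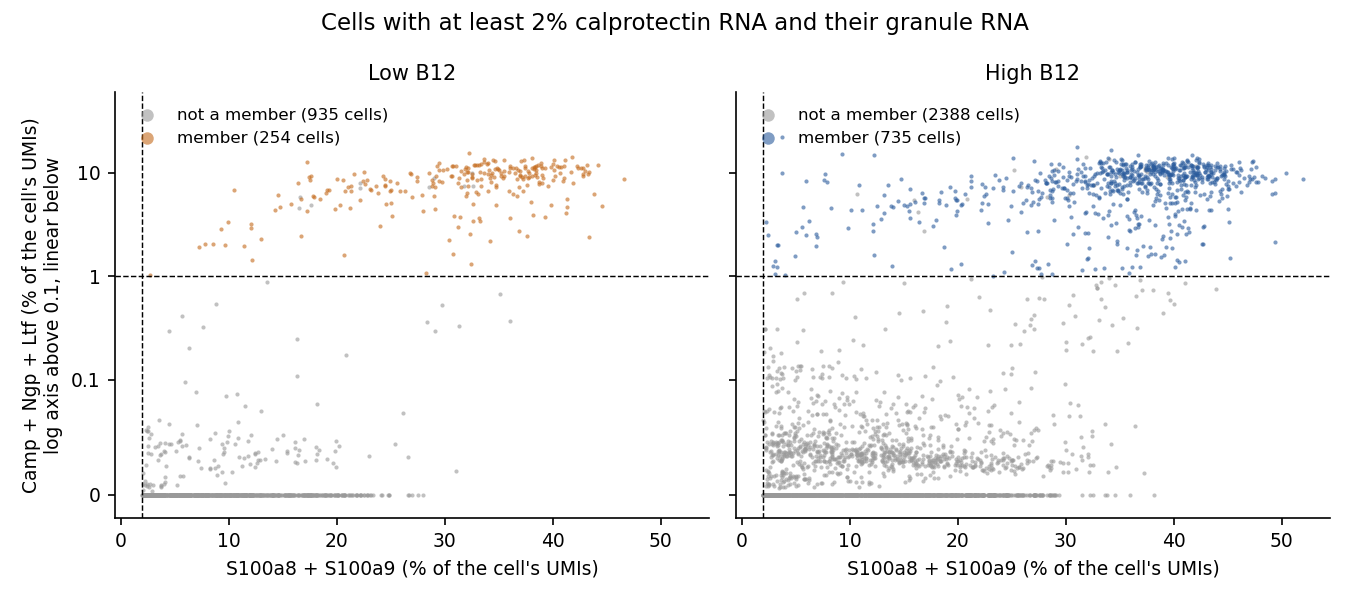
Share of each cell's UMIs from Camp, Ngp and Ltf (vertical, log axis above 0.1%) against the share from S100a8 and S100a9 (horizontal) for cells at or above the 2% calprotectin limit, with both limits dashed, members in colour and other cells in grey. The members' median granule shares are 8.64% and 8.27%, that of the other cells is 0, and few cells lie near the limit of 1%.

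The rule cut through a thin region. Within 0.5 percentage points of the granule limit there were 4 members and 3 other cells in the Low B12 library and 29 members and 31 other cells in the High B12 library, and the median granule share was 8.64% and 8.27% over members but 0 in both libraries over the other calprotectin-high cells. The calprotectin limit left out 0 and 1 cells that met the other limits. From 5 to 9 progenitor UMIs there were 8 and 7 members, and 2 cells in each library had 10 to 14. Members were deep cells, with median UMIs of 11758 and 11672 and median genes of 2235.5 and 2064, against 2706 and 3001 UMIs in the other calprotectin-high cells. Member depth was thus nearly equal in the libraries. The libraries shared 4 cell barcodes, 1 of them a member in both.

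Members made up 3.90% of the cells of the Low B12 library (exact binomial interval 3.44 to 4.40%) and 10.9% of those of the High B12 library (10.2 to 11.7%), a difference of 6.99 percentage points (6.10 to 7.88) and a ratio of 2.79. All calprotectin-high cells made up 18.3% (1189 cells) and 46.3% (3123 cells), a ratio of 2.53. As a share of the calprotectin-high cells, members were 21.4% (19.1 to 23.8%) and 23.5% (22.1 to 25.1%). That difference of 2.17 points had an interval of −0.68 to 4.93 points, so it was not larger than its counting error. Without the members that had 3 or more UMIs of B, T, NK, erythroid and macrophage markers, the difference was 4.19 points (1.97 to 6.28). This filter kept 120 of 254 and 446 of 735 members but was not put on the 1189 and 3123 calprotectin-high cells. The libraries lost unlike parts of their members, so this value does not compare like-filtered cells. The higher share of members in the High B12 library therefore stood beside a higher share of calprotectin-high cells as a whole. Freezing and a sort on CD11b came before these shares, which are shares of sorted cells and not cell numbers in the spleen.

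Secondary granule RNA took up about as much of the members' RNA in both libraries. Camp was at 41101 and 41413 CPM, Ngp at 34339.6 and 37089 CPM and Ltf at 6259.9 and 6386 CPM, levels the rule itself requires to be high. Lcn2 was at 13024 and 14689 CPM in members and 682 and 1120.5 CPM in the other calprotectin-high cells. Cd177 was at 602 and 667 against 40.1 and 58.6 CPM. Mmp8 differed less between these cell groups, at 673 and 690.5 against 290.5 and 329 CPM. Hp, which encodes haptoglobin, was at 999 and 1178 CPM in members and 991 and 1365 CPM in the others, and so did not separate them. Of the 10 secondary granule genes measured beyond the rule's own, 8 were past 2-fold higher in members in both libraries, where 6.87% of all 7760 measured genes were past 2-fold higher and 22.6% past 2-fold lower. The rule picked members through granule RNA in this same contrast, so these counts describe the choice and support nothing. The granule and calprotectin RNA that defines members also lowers all other genes on this scale, and with UMI totals taken without the 8 genes of the rule 1058 genes were past 2-fold higher and 772 lower in both libraries, in place of 533 and 1752. Within members, single-cell levels of Camp ran from a lower quartile of 266 to an upper quartile of 549 UMIs per 10000 in the Low B12 library and from 204 to 527 in the High B12 library.

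Genes of the earlier, primary granules were divided in members. The proteases that the rule did not use were low, with Prss57 at 11.3 and 11.8 CPM and Ctsg as given above. Fcnb, which encodes ficolin B and is made early in granulocyte development, was at 397 and 366 CPM in members and 0 and 0.931 CPM in the other calprotectin-high cells. Ms4a3, a membrane protein of granulocyte and monocyte progenitors, was at 51.4 and 51.6 CPM against 0 and 0.233 CPM. Serpinb1a, an inhibitor of neutrophil serine proteases, was at 618 and 669.7 against 15.2 and 18.3 CPM. Cd63, a membrane protein of primary granules, was at 345 and 348 against 96.5 and 108 CPM. RNA of these 4 was thus seen in members whose elastase and myeloperoxidase RNA was nearly gone, and Fcnb was at or near 0 in the cells under the granule limit.

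Genes of the later gelatinase granules and secretory vesicles were already present. Mmp9, which encodes gelatinase B, was at 739 and 846 CPM in members and 1211 and 1218 CPM in the other calprotectin-high cells. Itgam, the CD11b gene of the sort, was at 556 and 547 against 511 and 497 CPM, and its partner Itgb2 at 287 and 261 against 331 and 343 CPM. Mmp25, a membrane-bound matrix protease, was at 90.7 and 87.6 against 37.7 and 40.5 CPM. Of the 7 measured genes of this list, 1 was past 2-fold higher and 2 past 2-fold lower in members in both libraries. Of all 7760 measured genes 6.87% and 22.6% were. Of the NADPH oxidase genes, whose products make superoxide, the catalytic subunit Cybb was at 1467 and 1331 CPM in members and 276 and 146 CPM in the others.

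Genes listed for immature neutrophils were nearly all higher in members, 13 of 15 past 2-fold in both libraries, where 6.87% of all 7760 measured genes were. The rule made this contrast too, so the count describes the chosen cells and is no support for their name. Chil3, a chitinase-like secreted protein, was at 3884 and 4146 CPM against 27.8 and 61 CPM. Ly6g, the surface antigen by which mouse neutrophils are sorted, was at 609 and 741 against 51.8 and 100.4 CPM. Cebpe, the gene of the C/EBP factor named above, was at 349 and 342 against 10.5 and 15.8 CPM. The related Cebpb, known from mature and emergency granulopoiesis, had the opposite order, at 342 and 243 against 1389 and 1357 CPM, and Cebpd was at 275 and 286 against 512 and 561 CPM. Gfi1, a repressor needed for neutrophil formation, was at 10.2 and 12.3 CPM in members and at 0.878 and 1.75 CPM in the others. Among the genes with the largest ratio in both libraries were also Orm1 (an acute phase protein, 267 and 252 CPM in members, 0 and 0.465 CPM in the others), Mgst2 (223 and 236 against 8.78 and 9.77 CPM), Lta4h, the leukotriene A4 hydrolase (369 and 317 against 26.9 and 19.7 CPM), Itgb2l, an integrin beta chain (240.1 and 239 against 3.803 and 12 CPM), and Abca13, a lipid transporter gene (310.1 and 284 against 17.3 and 18.7 CPM).

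Genes of mature and activated neutrophils were low in members. Il1b, which encodes the cytokine interleukin 1 beta, was at 117 and 120.0 against 4143 and 3719.7 CPM, members before others, 35.3-fold and 31-fold lower in members. Cxcr2, the chemokine receptor that draws mature neutrophils out of the marrow, was at 99.7 and 120.0 against 921 and 929.7 CPM, and Csf3r, the G-CSF receptor, at 159 and 191 against 2849.8 and 2712 CPM. Ptgs2, the inducible prostaglandin synthase, was at 16.7 and 11.1 against 322 and 358 CPM. Nlrp3, the inflammasome sensor, was at 18.9 and 18.2 against 330.3 and 304 CPM, and Socs3, a feedback inhibitor of cytokine signalling, at 16.4 and 14.6 against 287 and 328 CPM. Cd101, a surface marker of mature neutrophils, was at 8.76 and 16.2 against 345 and 353 CPM. Of the mature neutrophil list 19 of 24 genes and of the inflammatory and NF-kB list 26 of 36 were past 2-fold lower in members in both libraries. So were 16 of 21 of the immediate early list and 21 of 35 of the type I interferon list, and no gene of these lists was past 2-fold higher. Of all 7760 measured genes 22.6% were past 2-fold lower and 6.87% higher. These list counts were made with the rule's genes in the totals, which lowers all other genes of members. They also come from the contrast that the rule made and are a description only. Less far apart was Retnlg, a resistin-like secreted protein, at 3227 and 5803 CPM in members and 5894 and 8958 CPM in the others. With both cell groups held to cells of 3000 UMIs or more, an alternative chosen after seeing the data, the log2 ratio of Il1b was −4.69 and −4.75. The 24 genes ranked highest in this comparison kept their direction. They were picked by the size of this same contrast, so they could hardly have turned and this is no check.

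**Figure D2:**
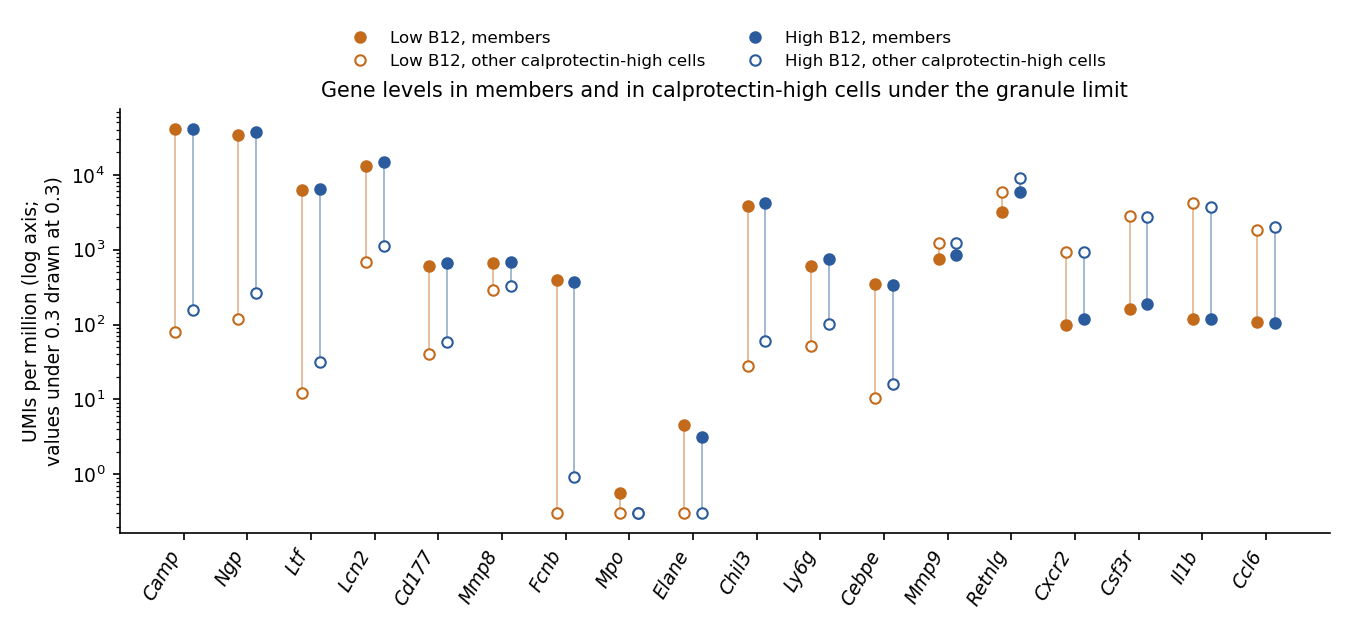
CPM (log axis) of granule, immature and mature neutrophil genes in members (filled) and in the other calprotectin-high cells (open) of each library, joined by a line. Camp is at 41101 and 41413 CPM in members, while Il1b, Csf3r, Cxcr2 and Ccl6 are higher in the other cells.

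Members formed a gradient. They were ranked by the share of Camp, Ngp and Ltf over both libraries together and cut into 4 bins of like size, which held 56, 61, 69 and 68 members of the Low B12 library and 192, 186, 178 and 179 of the High B12 library, from the lowest share to the highest. Over these bins Retnlg went from 8948 CPM in the lowest to 499.7 CPM in the highest bin of the Low B12 library and 20247 to 768 CPM in the High B12 library. Mmp8, although a secondary granule gene, went the same way as Retnlg, from 1175 to 218 CPM and 1604 to 140.3 CPM. Mmp9 went from 1139 to 396 CPM and 1654 to 325 CPM, and Il1b from 221 to 0 CPM and 229 to 19.7 CPM. In the opposite direction, Fcnb went from 108 to 699 CPM and 75 to 645 CPM and Chil3 from 1369 to 6107 CPM and 1235 to 6206 CPM. Cebpe went from 199 to 463 CPM and 145 to 439 CPM, and Orm1 from 68.7 to 433 CPM and 64.5 to 387 CPM. The early genes Fcnb and Cebpe thus went with Camp, Ngp and Ltf, and Mmp8 with the later Mmp9 and Retnlg, in both libraries. Of 3536 measured genes 3% were past 2-fold higher and 19.8% past 2-fold lower in the highest than in the lowest bin in both libraries. Cd177 had levels of 549 to 613 CPM and 629.8 to 623 CPM, and Ltf went from 3819 to 7173 CPM and 4093 to 6331 CPM. The bins were made from the rule's own genes, so this is a description without a test.

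RNA of other cell types sat at the low end of this gradient. Cd74, the invariant chain of MHC class II and not a neutrophil gene, was at 1997 and 1253 CPM in the lowest and 19.6 and 11.1 CPM in the highest bin. H2-Aa, a class II chain, was at 799 and 458 CPM in the lowest and 11.3 and 4.85 CPM in the highest bin, and Apoe, an apolipoprotein made by macrophages, at 549 and 263 CPM in the lowest and 8.24 and 4.16 CPM in the highest bin. Scrublet, a program that scores barcodes by their likeness to simulated mixes of cells, called 21, 10, 6 and 0 doublets in the 4 bins of the Low B12 library and 33, 37, 6 and 2 in those of the High B12 library. Mixed droplets move with the bins, and their part in the levels of the lowest bin was not tested.

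**Figure D3:**
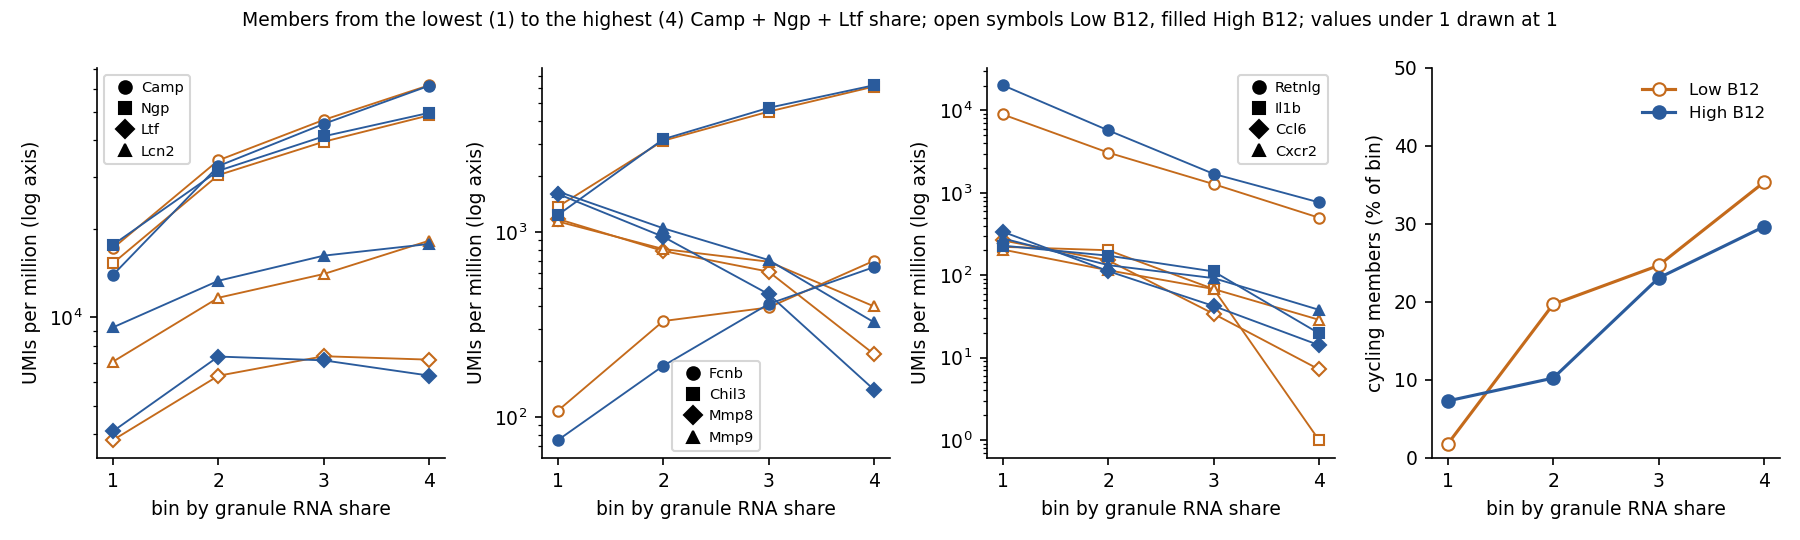
Levels (CPM, log axis) of 12 genes and the share of cycling members (last panel, percent) in the 4 bins of members ranked by granule RNA share, in the Low B12 (orange, open) and High B12 (blue, filled) library. Retnlg, Mmp8, Mmp9 and Il1b are lower and Fcnb, Chil3 and the cycling share higher in bin 4 than in bin 1.

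Some of the members carried cell cycle RNA. Genes of S phase and of G2 and M phase, without Hmgb2, whose RNA was also high in the other members, made up 0.3% or more of the UMIs in 54 of 254 members of the Low B12 library (21.3%, interval 16.4 to 26.8%) and in 127 of 735 of the High B12 library (17.3%, 14.6 to 20.2%). The difference of −3.98 points had an interval of −10.1 to 1.70 points, so it was not larger than counting error. This limit was set after the values had been seen, in the low region between the 2 groups of cells, and 11 and 51 members lay within 0.1 points of it. Mki67, which encodes the proliferation antigen Ki-67, is itself among the genes of the measure and had a UMI in 51 of the 54 and 112 of the 127 cycling members, but in 13 of 200 and 43 of 608 of the others. Top2a, the topoisomerase that untangles replicated DNA and also a gene of the measure, had a UMI in 42 of 54 and 90 of 127, against 8 of 200 and 18 of 608. Without Scrublet calls the cycling shares were 21.2% and 18.3%. Among cells of 3000 UMIs or more, 21% and 16.6% of members reached the limit, against 4.41% and 5.81% of the other calprotectin-high cells. In another measure, with members thinned to 1000 UMIs and 3 or more UMIs of cycle genes including Hmgb2, the shares were 55.6% and 56.5% (99.2% and 98.5% unthinned), and Hmgb2 alone gave 48.6% and 52.9% of those UMIs.

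Cycling and other members differed in granule genes that the limit did not use. Of 5462 measured genes, 7.74% were past 2-fold higher and 5.71% past 2-fold lower in cycling members in both libraries. The higher ones were led by genes that move with the cell cycle, such as the replication histone Hist1h1b (518 and 482 against 5.42 and 5.24 CPM, cycling members first), the PCNA-associated factor Pclaf (355 and 367 against 2.08 and 4.39 CPM) and stathmin, Stmn1 (685 and 739 against 15.8 and 15.9 CPM). Fcnb was also higher, at 847 and 789 against 183 and 224 CPM, as was Chil3 at 6036 and 6741 against 2861 and 3280.0 CPM and Ms4a3 at 125 and 125 against 16.2 and 27 CPM. Mmp8 was at 38.6 and 39 against 975 and 908 CPM, so that collagenase RNA was low in cycling members. Retnlg was at 365 and 313 against 4587 and 7635 CPM, Mmp9 at 88.6 and 99.2 against 1048 and 1095 CPM and the formyl peptide receptor Fpr2 at 73.7 and 87.4 against 356 and 316 CPM. The rule's own Camp (52379.8 and 52757 against 35742 and 37626 CPM) and Ltf (5017 and 5042 against 6850.5 and 6834 CPM) lay on opposite sides, and Ly6g was at 282 and 355 against 764 and 869 CPM. Cycling members were deeper, with median UMIs of 19967 and 20038 against 10709.5 and 10876.5, and their share over the bins went from 1.79% to 35.3% and from 7.29% to 29.6%.

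**Figure D4:**
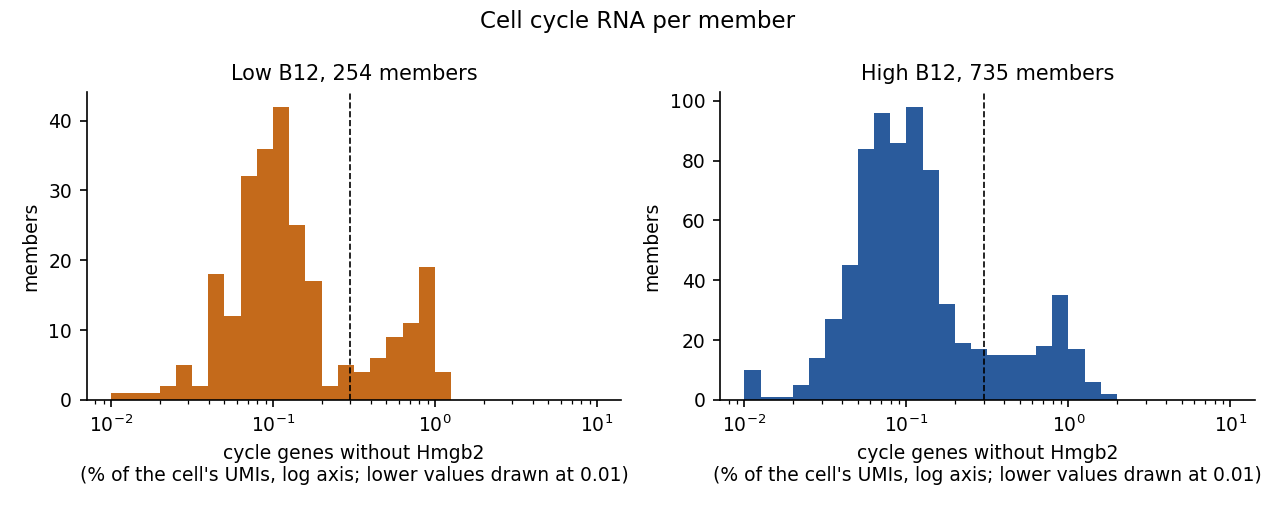
Number of members (vertical) by the share of their UMIs from S phase and G2 and M phase genes without Hmgb2 (horizontal, percent, log axis) in each library, with the limit of 0.3% dashed. A large group lies near 0.1% and a smaller one near 1%, with 54 of 254 and 127 of 735 members at or above the limit.

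Before levels were compared between the libraries, foreign RNA in members was measured. Scrublet called 37 of the 254 members (14.6%) and 78 of the 735 (10.6%). The 12 B cell markers summed to 1180 CPM in members of the Low B12 library and 183 CPM in those of the High B12 library, and to 474 and 112 CPM without Scrublet calls. The 10 leading cells held 70.0% and 61.3% of these UMIs. The 11 NK cell markers summed to 186 and 176 CPM (31.9 and 41.9 CPM without Scrublet calls), the 12 macrophage markers to 115 and 97.1 CPM, the 12 monocyte markers to 1344 and 1009 CPM and the 10 dendritic cell markers to 653 and 377 CPM. Of the 8 basophil and mast cell markers 2 and 5 had a UMI in members, and of the 9 eosinophil markers 5 and 6. Mcpt8, Gata2 and Fcer1a of the former and Epx and Prg3 of the latter had none in either library. The basophil and mast cell markers include Hdc, which is also on the neutrophil marker list, and its part in their sum was not separated. The 8 basophil and mast cell markers summed to 252 and 278 CPM, with 3 or more UMIs in 43.7% and 46.4% of members, against 940 and 1040.1 CPM in the other calprotectin-high cells, and the 9 eosinophil markers to 72.6 and 54.0 CPM. In barcodes of 1 to 100 UMIs, which stand for free RNA, S100a8 and S100a9 made up 3.47% and 9.08% of UMIs and Camp, Ngp and Ltf 0.601% and 1.54%. Free calprotectin and granule RNA was thus more abundant in the High B12 library, and B cell RNA in members of the Low B12 library. Their part in the differences between the libraries was not tested.

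Most genes had a lower level in members of the High B12 library. For the 8407 genes that reached 50 UMIs over the members of both libraries, the ratio of High B12 over Low B12 was past 1.5-fold higher for 123 (1.46%) and past 1.5-fold lower for 1699 (20.2%), and the median log2 ratio was −0.26. The calprotectin genes took up more of the members' total in the High B12 library, S100a8 being at 153087 and 183481 CPM and S100a9 at 141152 and 172138 CPM, which lowers every other gene on this scale. Scaled by the median ratio of measured genes in place of the UMI total, 362 genes were higher and 817 lower, 30.7% of the calls on the higher side in place of 6.75% (17.4% with UMI totals without the rule's genes). Without Scrublet calls 144 were higher and 963 lower. Each list below stands beside that median for this reason.

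Of the 10 secondary granule genes measured beyond the rule's own, 8 had a ratio above 1, where 21% of all genes did, and the list median was 0.17 (0.065 without Scrublet calls, and −0.016 in the 120 and 446 members with under 3 UMIs of markers of B, T, NK and erythroid cells and macrophages). Lcn2 was at 13024 and 14689 CPM (ratio 1.13, interval 1.12 to 1.14), Ltb4r1, the leukotriene B4 receptor gene, at 267 and 337 CPM (ratio 1.26, interval 1.18 to 1.36), and Chil1, a chitinase-like granule protein, at 184 and 223 CPM (ratio 1.21, interval 1.11 to 1.33). In that last subset the log2 ratio of Lcn2 turned from 0.17 to −0.044. The subset's cut was not scaled to depth, and cycling members were deeper, so it can also select members by depth. Its NK cell markers include Nkg7, which is also on the primary granule list. Mmp8 (673 and 690.5 CPM, ratio 1.03, interval 0.978 to 1.08) and Orm1 (267 and 252 CPM, ratio 0.945, interval 0.876 to 1.02) differed by no more than counting error. Ceacam1, an adhesion molecule, was lower, at 196 and 155 CPM (ratio 0.791, interval 0.722 to 0.867). The primary granule list had a median of 0.0027 with 4 of 7 genes above 1, the gelatinase list −0.023 with 3 of 7, and the immature neutrophil list 0.094 with 12 of 15. Without Scrublet calls 2 of 7 primary granule genes were above 1, with a median of −0.12, and in the subset the immature list had a median of −0.072. Apart from Olfm4, described next, no gene of these 4 lists was past 1.5-fold higher, and only Ctsc (31.6 and 19 CPM) was past 1.5-fold lower, a call that was lost without Scrublet calls (9.28 and 8.996 CPM, ratio 0.9696, interval 0.608 to 1.595).

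Olfm4, which encodes olfactomedin 4, a secondary granule protein known from only some neutrophils of an animal, had the largest ratio of the granule lists. Its level was 36.4 and 171 CPM (ratio 4.69, interval 3.92 to 5.65), and without Scrublet calls 25.6 and 183 CPM. The number of cells with the RNA differed: 5 of 254 members had an Olfm4 UMI in the Low B12 library (1.97%, interval 0.642 to 4.53%) and 60 of 735 in the High B12 library (8.16%, 6.29 to 10.4%). The cells that had it had much of it, with a median of 28 and 23.5 UMIs and all 5 of the Low B12 library and 56 of the 60 at 3 UMIs or more. Olfm4 members of the High B12 library lay in every bin, 17, 12, 21 and 10 of them from the lowest to the highest, 9 of the 60 were cycling and 7 were Scrublet calls. In that library their median UMIs were 11191 against 11691 in the other members, and their median granule share 8.53% against 8.26%. The 5 of the Low B12 library lay in bins 2 (2 cells) and 4 (3 cells) and had higher medians than the rest, 16266 against 11647 UMIs and a granule share of 11.7% against 8.63%. In the other calprotectin-high cells 11 of 922 (1.19%) and 92 of 2365 (3.89%) had an Olfm4 UMI, and in cells under the calprotectin limit 0.0376% and 0.469%, at median depths of 6026 and 5817 UMIs. With 5 cells in the Low B12 library the size of the ratio rests on few cells.

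Of the genes at 200 CPM or more, 8 had an interval wholly above a ratio of 1.2, the bound used for naming (0.607% of all genes, at any level, lay above it). Cxcl2, which encodes a chemokine for neutrophils, was at 117 and 230.0 CPM (ratio 1.96, interval 1.76 to 2.18) and was found in 26% and 30.5% of members, with 53.4% of its UMIs in the Low B12 library in 10 cells. Retnlg was at 3227 and 5803 CPM (ratio 1.798, interval 1.76 to 1.83) and was found in 73.6% and 84.5% of members. Slc7a11, the cystine and glutamate exchanger that feeds glutathione synthesis, was at 197 and 353 CPM (ratio 1.797, interval 1.66 to 1.95) and was found in 57.5% and 68.3%. Gsr, the glutathione reductase, was at 849.5 and 1091 CPM, and Mgst1, a microsomal glutathione transferase, at 395 and 507 CPM. The others were Lilr4b, H3f3b and S100a11, with ratios of 1.31, 1.29 and 1.28. Without Scrublet calls the lower bounds of Lilr4b, Gsr, Mgst1 and S100a11 were 1.18, 1.15, 1.17 and 1.16, under the bound, and those of the other 4 stayed above it. In members with under 3 UMIs of other cell types' markers the log2 ratios of Gsr and S100a11 were 0.038 and 0.089, and those of Retnlg, Slc7a11 and Lilr4b 0.46, 0.50 and 0.17. Each of the 8 also had a ratio above 1 in the other calprotectin-high cells, from 1.08 for Lilr4b to 1.52 for Retnlg. In cycling members Retnlg did not share the direction, at 365 and 313 CPM, while in the other members it was at 4587 and 7635 CPM. In barcodes of 1 to 100 UMIs it was at 888 and 2373 CPM, and the part of free RNA was not tested.

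Heat shock genes were lower in members of the High B12 library. Hspa1b, an inducible HSP70 gene, was at 403 and 89.3 CPM, 4.52-fold lower, interval 4.15 to 4.93, and its neighbour Hspa1a was at 344 and 97.7 CPM, 3.52-fold lower, interval 3.23 to 3.84. Near-identical copies, they can share reads, and their separate values are uncertain. Hspa1b had a UMI in 40.6% and 14% of members, so the libraries differed in how many members carried it. Hsp90aa1, the inducible HSP90 gene, was at 412 and 171 CPM (2.41-fold lower, interval 2.25 to 2.59) and Hspa8, the constitutive HSP70, at 546 and 317 CPM. Of the 15 measured heat shock genes 14 had a ratio under 1, where 79% of all genes did, and the median log2 ratio was −0.79. Past 1.5-fold lower were 8 of them, where 20.2% of all genes were. In the other calprotectin-high cells 15 of 15 heat shock genes had a ratio under 1, with a median of −0.43. Without Scrublet calls Hspa1b was at 236 and 21.4 CPM, 11-fold lower. In barcodes of 1 to 100 UMIs it was at 1306 and 796 CPM and over all cells at 1276 and 722 CPM, each above the members' level. The part of free RNA in the members' level was not tested.

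All 10 measured MHC class II genes had a ratio under 1, where 79% of all genes did, with a median of −1.21. All 10 were also past 1.5-fold lower, where 20.2% of all genes were. Cd74 was at 786 and 357 CPM (2.205-fold lower, interval 2.096 to 2.32) and H2-Eb1 at 305 and 126 CPM (2.41-fold lower, interval 2.22 to 2.62). These are genes of antigen-presenting cells, and 10 members held 52% and 62% of the Cd74 UMIs. Without Scrublet calls Cd74 was at 299.9 and 42.2 CPM. The B cell marker sum, given above, was higher in the same library. Zeb2, a transcription factor of monocytes and dendritic cells, was at 288 and 92.2 CPM (3.12-fold lower, interval 2.84 to 3.42), Apoe at 269 and 100.1 CPM (2.69-fold lower, interval 2.45 to 2.94), and S100a4, Crip1 and Foxp1 had ratios of 0.4703, 0.482 and 0.5297. In the 120 and 446 members with under 3 UMIs of the other cell types' markers, the log2 ratio of Crip1 turned to 0.29. Those of S100a4, Foxp1 and Zeb2 were −0.24, −0.35 and −0.60 there. The class II genes Cd74, H2-Aa, H2-Ab1 and H2-Eb1 stayed under 0, at −0.92, −0.52, −0.43 and −0.14. In all, 65 genes at 200 CPM or more had an interval wholly under the inverse of 1.2 (15.2% of all genes, at any level).

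Of the 7 measured genes of B12 uptake and cofactor use, 4 had a ratio under 1, where 79% of all genes did. Methionine synthase, encoded by Mtr, and the mitochondrial methylmalonyl-CoA mutase need the vitamin as their cofactor, which transcobalamin carries to the receptor CD320. Mtr was at 6.78 and 3.93 CPM, with an interval of the ratio from 0.338 to 1.01, and Cd320 was at 0.282 and 0.106 CPM. Tcn2, which encodes transcobalamin, was at 69.5 and 77.3 CPM (ratio 1.11, interval 0.961 to 1.29) and was among the 3 above 1. All 11 measured genes of the folate and methionine cycle had a ratio under 1, with a median of −0.63, and Mat2a, which makes S-adenosylmethionine, was at 123 and 75.7 CPM. All 12 of the Tet, Dnmt and chromatin list were lower too, with a median of −0.56. Tet2 was at 50.8 and 34.5 CPM (ratio 0.679, interval 0.564 to 0.819), and its log2 ratio of −0.56 turned to 0.17 in members with under 3 UMIs of other cell types' markers. A 3′ count outside a deleted part of a gene would not show its loss, so Tet2 counts do not check a genotype.

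Ribosomal protein genes had a ratio under 1 in 80 of 81 cases, where 79% of all genes did, with a median of −0.54 (−0.38 without Scrublet calls). The same held in the other calprotectin-high cells, with a median of −0.48. S phase genes had a median of −0.33, G2 and M phase genes −0.21 and oxidative phosphorylation genes −0.084. In members with under 3 UMIs of other cell types' markers these turned to 0.18, 0.19 and 0.0087, while the ribosomal median was −0.029. That cut was not scaled to depth and cycling members were deeper, and the part of depth and cycling in these turns was not tested. With cycling and other members weighted alike the G2 and M phase median was 0.075, 31 of 49 above 1. Type I interferon genes were divided, 15 of 36 above 1, where 21% of all genes were, with a median of −0.091. The antiviral genes Isg15 (10.4 and 23.2 CPM) and Rsad2 (5.37 and 12.5 CPM), named after their values were seen, were among the 6 past 1.5-fold higher. Past 1.5-fold lower were 8, where 1.46% of all genes were higher and 20.2% lower. Without Scrublet calls 29 interferon genes were measured, 8 of them past 1.5-fold higher and 0 lower, with a median of 0.014. In members with under 3 UMIs of other cell types' markers 20 were measured, 5 of them past 1.5-fold higher and 0 lower. In the other calprotectin-high cells 27 of 36 were above 1, with a median of 0.33. Of the inflammatory list 11 of 35 were above 1. Cxcl2 was the only one past 1.5-fold higher and 10 were past 1.5-fold lower, where 1.46% and 20.2% of all genes were. Without Scrublet calls 31 of this list were measured, 3 of them past 1.5-fold higher and 5 lower. Il1b was at 117 and 120.0 CPM (ratio 1.02, interval 0.912 to 1.15) and Nfkb1, the NF-kB subunit p105 gene, at 125 and 69.6 CPM. Of the myeloid transcription factors, Klf4, known from monocytes, was lowest against its level in the Low B12 library, at 94.3 and 28.1 CPM, while Cebpe was at 349 and 342 CPM. Glycolysis, NADPH oxidase and immediate early genes had medians of 0.013, 0.046 and 0.0043, and secretory pathway, glucocorticoid response and MHC class I genes of −0.18, −0.40 and −0.43. Scaling by the median ratio raises every list median by 0.26. It takes those of the gelatinase, secretory pathway, G2 and M phase, oxidative phosphorylation, interferon, inflammatory and myeloid transcription factor lists above 0. The myeloid transcription factor median was −0.028 as reported.

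**Figure D5:**
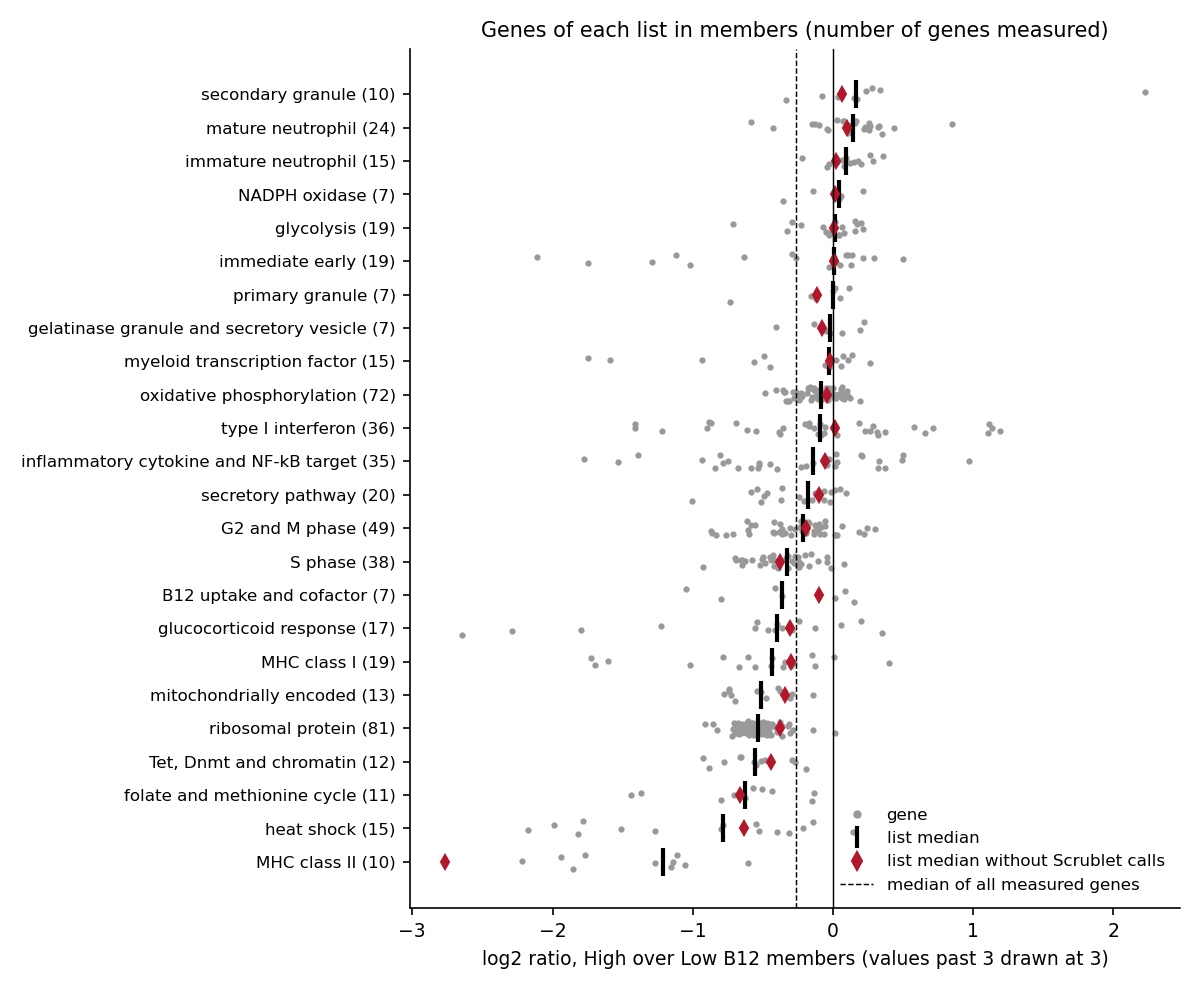
Log2 ratio of High over Low B12 members for each gene (grey) of the gene lists, with the list median (bar), the median without Scrublet calls (red) and the median of all measured genes (dashed, at −0.26). The secondary granule list has the highest median, with Olfm4 as the far right point, and the MHC class II and heat shock lists the lowest.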

How the data were processed

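Libraries of sorted spleen cells were compared, 2 in all and 1 per B12 treatment. The authors deposited raw UMI counts per gene and barcode, unfiltered, with totals of 48884220 (Low B12) and 46994991 UMIs (High B12). The matrices were written by Cell Ranger 4 per the file headers, while the submitters' processing notes name version 2.1.1. No build is named (not given in the sources used here), and 32158 of 32285 gene IDs were found in GENCODE M21, used for positions alone.

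Member UMIs were summed per library and scaled to a total of 1000000 (CPM). A gene was measured with 50 UMIs over both libraries, and 0.5 UMI was added for log2 ratios. Ratios have exact conditional binomial intervals and shares exact binomial intervals, all covering counting error only. Doublets were called per library with Scrublet in scanpy 1.11.5 (Python 3.11.15, scipy 1.17.1) and kept unless stated. Ratio scripts were tested on simulated data. The members, gene lists and naming rule were chosen with earlier results of these data known. Named were granule genes, up to 12 genes each way with the largest ratio at 200 CPM or more with an interval beyond 1.2 (or 2-fold in both libraries between cell groups), up to 4 genes per other list, and Il1b, Itgam, Tet2, Mtr and Cd320. Other genes were chosen after their values were seen.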

Additional observations from a re-analysis of the deposited data

How the results depend on the processing

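As reported, 123 genes were past 1.5-fold higher and 1699 lower in members of the High B12 library. Scaled by the median ratio the counts were 362 and 817, and by the UMI total without the rule's genes 229 and 1090. Without Scrublet calls 963 were lower, and with median scaling as well, added after seeing the data, 322 and 513. Without members that had UMIs of other cell types the counts were 270 and 432. The members' share of cells, with all other cells left unfiltered, then differed by 4.77 points in place of 6.99. The G2 and M phase list had a median of 0.19 there and of 0.075 with cycling and other members weighted alike, and Ctsc a ratio of 0.97 without Scrublet calls. With every member weighted the same 277 were higher, thinned to 1000 UMIs 206 were lower, and in the upper 2 of 4 bins by granule RNA (added) 797 were lower. With 200 UMIs per gene as the minimum the counts were 25 and 573, and with 10 UMIs 505 and 3188. Against the other calprotectin-high cells, totals without the rule's genes gave 1058 higher and 772 lower in place of 533 and 1752. Without members with UMIs of other cell types the log2 ratio of Crip1 was 0.29 and of Tet2 0.17, and the medians of the S phase list 0.18 and of the mitochondrially encoded list 0.068. Thinning put Pcna at 0.011, and Scrublet with median scaling put Ctsc at 0.12. The cause of these turns was not tested. Cell limits, a 2% granule, 5% calprotectin or 0.1% progenitor limit and equal weighting of bins or of cycling members kept the counts of genes and the members' shares within 1.5 times or their intervals. No paired analysis was possible because each group has 1 library. The comparison with progenitor cells was not run, since the Low B12 library held 19 of the 20 cells needed. Depth limits the rare genes: Olfm4 rests on 5 cells and Cd320 on 1 UMI per library.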

Other observations

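Hspa1b differed between the libraries in each subset of members looked at. It was at 94.8 and 7.97 CPM in the bin with the highest granule RNA, where Scrublet called 0 and 2 doublets, at 331 and 115 CPM in cycling members and at 438 and 80.7 CPM in the others. In the upper 2 bins together, its log2 ratio was −3.12, and that of Hspa1a −3.25. In the same members the log2 ratios of Retnlg, Cxcl2 and Slc7a11 were 0.46, 0.52 and 0.59, smaller than over all members. The freezing and thawing of the cells, the handling of each library and the treatment cannot be told apart here.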
